A study of Arabidopsis thaliana with 16 samples.

Results

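TRY (TRIPTYCHON, AT5G53200), ATMYC1 (AT4G00480) and JKD (JACKDAW, AT5G03150) are 3 genes that help to set the pattern of hair cells and non-hair cells in the root epidermis of Arabidopsis thaliana. Their transcripts were followed through every probe set of the Affymetrix ATH1 array that the platform annotation assigns to each of them alone. That gave 1 probe set per gene, 3 of the 13513 probe sets with a single annotated gene and of the 22746 on the array once controls were set aside. All arrays came from seedlings labelled with the Columbia ecotype, of 4 genotypes: wild type, the double mutants wer-1 myb23-1 and cpc-1 try-82, and the single mutant scm-2. Seedlings were 5 days old and spent 1 hour on standard medium or on medium with 140 mM NaCl, and each of the 2 biological replicates of a genotype and medium was a pool of about 30 root tips cut about 5 mm from the end, 16 arrays in all. Where the title of a mutant array says standard medium but another label gives NaCl as its growth medium, the title was followed.

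In the root epidermis, a complex of the MYB proteins WEREWOLF or MYB23 with helix-loop-helix proteins and a WD40 protein promotes non-hair fate and switches on small single-repeat MYB proteins. These, among them CAPRICE and TRIPTYCHON, move into neighbouring cells, compete for the helix-loop-helix partners and so allow hair fate there. SCRAMBLED, a receptor-like kinase, passes the position of a cell relative to the cortex into this circuit. TRY is thus an inhibitor of non-hair fate and is one of the genes named in the cpc try double mutant. ATMYC1 is a helix-loop-helix protein related to the partners GL3 and EGL3. JKD is a zinc finger protein of the ground tissue, the layers inside the epidermis, from where it acts on epidermal patterning, and it also takes part with SHORT-ROOT and SCARECROW in laying down those layers. Plants without WER and MYB23 form hairs in nearly all positions, cpc try roots form hardly any, and scm roots mix the positions of the cell types.

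TRY and ATMYC1 set the arrays labelled cpc try apart from the other genotypes in opposite directions, TRY upward and ATMYC1 downward. JKD was lowest in wild type on salt. The values are MAS5 signals on a linear scale, scaled by the authors to a common mean per array, so they are relative brightness values. The 25th percentile of all signals was 21.7 and the median was 78.0. Log2 changes below were computed on log2(signal + 4.10), which makes the changes of dim probe sets smaller than the ratio of their signals. A change was called at a Benjamini-Hochberg adjusted p under 0.05 over the 17059 probe sets tested with limma. Of the 60 changes computed for these genes over 20 comparisons, 13 were called, and 10 of these compared cpc try with another genotype. Over the 20 comparisons the share of all probe sets called ran from 0% to 26.5%. The 10 calls are of TRY and ATMYC1 only and reuse the same cpc try arrays, so they are not separate evidence.

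TRY, the inhibitor, gave signals of 751 and 870.1 on standard medium in the arrays labelled cpc try and of 501 and 481 on salt. In wild type they were 47.8 and 49.7 on standard medium and 15.6 and 9.98 on salt. In wer myb23 they were 1.90 and 17.8 on standard medium and 23.9 and 32.5 on salt, and in scm 18.9 and 4.11, then 45.3 and 27.3. The 4 cpc try arrays were therefore all above the 12 others, whose highest signal was 49.7, a wild type array on standard medium. Within its array, the TRY probe set stood between the 85.2nd and the 91.3rd percentile of probe sets in cpc try, and between the 4.0th and the 40.4th elsewhere. The order of the group means was cpc try on standard medium, cpc try on salt, wild type on standard medium, scm on salt, wer myb23 on salt, wild type on salt, scm on standard medium and wer myb23 on standard medium. The arrays of neighbouring groups overlapped between scm and wer myb23 on salt and among the 3 lowest groups, and the gap of 12.5 between wild type on standard medium and scm on salt was smaller than the SD of the latter, 12.8.

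ATMYC1, the helix-loop-helix protein, gave signals of 299 and 272 in wild type on standard medium and of 318 and 261 on salt. In wer myb23 they were 418 and 341 on standard medium and 409.8 and 356 on salt. In scm they were 165 and 235 on standard medium and 222 and 211 on salt. In cpc try they were 24.4 and 38.0 on standard medium and 4.24 and 11.8 on salt. The 4 cpc try arrays were all below the other 12, which ran from 165 to 418, and the 2 on salt were below the 2 on standard medium. The group means fell in the order wer myb23, wild type, scm and cpc try. Within each of the first 3 genotypes the media overlapped, and between these genotypes the arrays did not overlap.

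JKD, the zinc finger protein, was a gene of middling signal. It read 74.8 and 68.7 in wild type on standard medium and 34.0 and 15.9 in wild type on salt. In wer myb23 it read 75.6 and 84.2 on standard medium and 76.6 and 68.6 on salt, and in scm 98.6 and 89.0, then 73.1 and 78.0. In cpc try it read 127 and 64.4 on standard medium and 63.5 and 59.3 on salt. Both wild type arrays on salt were below the other 14, which began at 59.3. The 2 cpc try arrays on standard medium differed most, with a mean of 95.5 ± 44.0 (SD, n = 2), so that their group stood first in the order of means while 1 of its arrays lay below every array of scm and wer myb23. After it came scm and wer myb23 on standard medium, scm and wer myb23 on salt, wild type on standard medium, cpc try on salt and wild type on salt. Neighbours in this order overlapped except between scm and wer myb23 on standard medium and on either side of cpc try on salt.

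**Figure D1:**
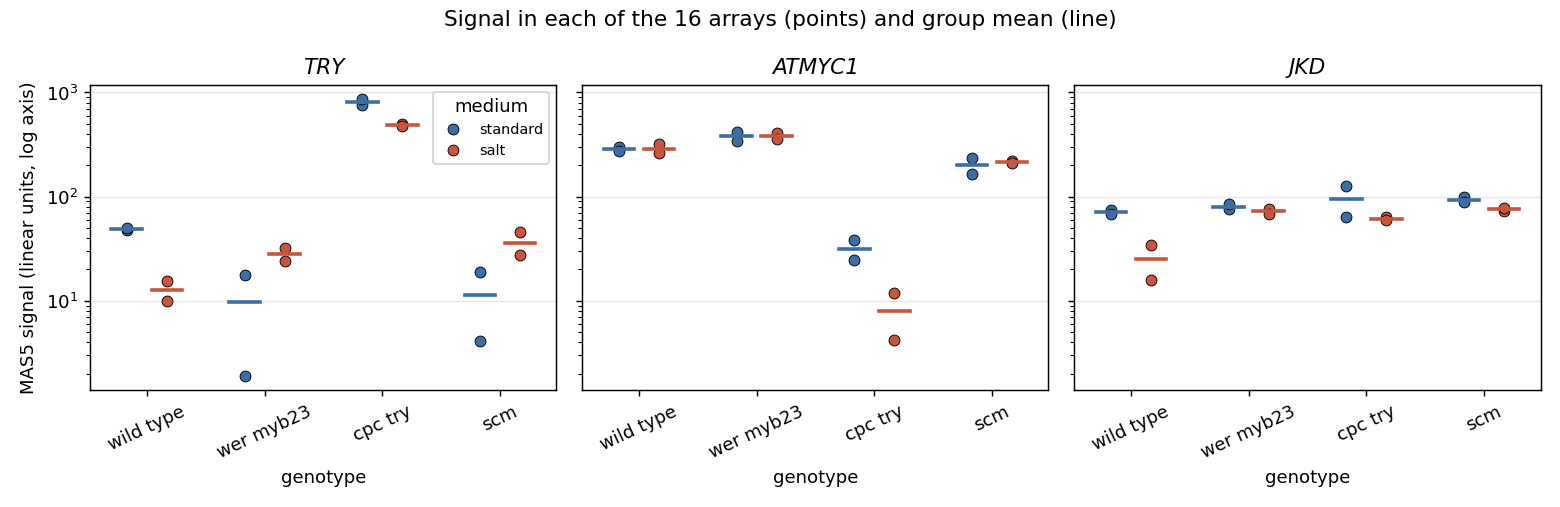
MAS5 signal (log axis) of TRY, ATMYC1 and JKD in each of the 16 arrays, with points for arrays, short lines for the mean of the 2 arrays of a group, and blue and red for standard medium and salt. The cpc try points lie from 481 to 870.1 for TRY and from 4.24 to 38.0 for ATMYC1, apart from the other 12 arrays, and the wild type salt points of JKD, 34.0 and 15.9, lie under the other 14.

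The comparison of each mutant with wild type asks how loss of the patterning regulators changed these transcripts. In cpc try, TRY was higher and ATMYC1 lower than in wild type on both media, and JKD was not called. On standard medium the log2 difference of TRY in the arrays labelled cpc try was 3.94 ± 0.57 (SE, n = 2 per group, limma adjusted p = 1.1e-04), and on salt it was 4.90 ± 0.57 (adjusted p = 9.7e-06). ATMYC1 was at -3.06 ± 0.31 on standard medium (SE, adjusted p = 7.5e-07) and at -4.67 ± 0.31 on salt (adjusted p = 2.3e-09). The salt value rests on cpc try signals of 4.24 and 11.8, near the pseudocount of 4.10, and its size moves with that offset, to -5.14 with a pseudocount of 1 and -3.68 with 16, both still called. JKD was at 0.32 ± 0.40 on standard medium, with a 95% interval from -0.51 to 1.15, and at 1.25 ± 0.40 on salt (SE, adjusted p = 0.0736). So 2 of the 3 genes were called on each medium, where 6.24% of all probe sets were called on standard medium and 5.59% on salt. The genes were chosen with earlier results of these data known, so these shares do not test that count. Over both media TRY was at 4.42 ± 0.40, ATMYC1 at -3.86 ± 0.22 and JKD at 0.78 ± 0.28 (SE, n = 4 arrays per genotype), the first 2 called where 11.6% of probe sets were. The labels name the try-82 allele without its lesion, so altered and intact TRY transcripts cannot be told apart here and the TRY probe set does not check the label. In bulk root tips, fewer cells of a type and less RNA per cell cannot be told apart.

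The 2 listed root hair genes with a probe set were low in the arrays labelled cpc try. EXPA7 (AT1G12560), an expansin of root hairs, gave 5.84 and 4.96 in cpc try on standard medium and 41.7 and 17.3 on salt, and ran from 722 to 1171 in the arrays of the other genotypes. EXPA18 (AT1G62980), another root hair expansin, gave 34.0 in each cpc try array on standard medium and 32.9 and 6.10 on salt, against 329 to 1445 in the other genotypes. Of the 23 cell type markers listed for these tissues only these 2 and CO2 (AT1G62500), a cortex gene, had a probe set in the annotation, and markers of the other tissues were not analysed here. CO2 gave between 95.8 and 138 in cpc try and between 12.3 and 101 elsewhere, and against wild type over both media it was at 0.47 ± 0.29 (log2, SE, adjusted p = 0.348). The part of hair cell number in the ATMYC1 value was not tested.

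In wer myb23 and scm no member was called against wild type on either medium. On standard medium TRY was at -2.20 ± 0.57 in wer myb23 (SE, limma adjusted p = 0.200) and at -1.94 ± 0.57 in scm (adjusted p = 0.299), and in both mutants its arrays were below those of wild type. On salt TRY was at 0.94 ± 0.57 and 1.24 ± 0.57, with the arrays of both mutants above those of wild type. For neither medium was the share of all probe sets with such a separation counted. On each medium both mutants are read against the same wild type arrays, so the 2 TRY differences are not separate evidence. The unadjusted 95% intervals of the standard medium differences ran from -3.40 to -1.01 and from -3.14 to -0.75, and few probe sets were called in these comparisons at all: 0.0879% for wer myb23 and 0.0528% for scm on standard medium, and 0.205% and 0.00586% on salt. These shares stand for 15, 9, 35 and 1 probe sets, and over the alternatives the counts ran from 2 to 37, 3 to 39, 8 to 58 and 0 to 41. With 1 array left out, the TRY difference on standard medium ran from -3.14 to -1.27 in wer myb23 and from -2.69 to -1.20 in scm.

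ATMYC1 stood above wild type in wer myb23, at 0.40 ± 0.31 on standard medium and 0.40 ± 0.31 on salt, and below it in scm, at -0.52 ± 0.31 and -0.41 ± 0.31 (log2, SE). None of these 4 comparisons was called. In each the 2 groups of arrays did not overlap, but the share of all probe sets with such a separation was not counted. On each medium both mutants are read against the same wild type arrays, so their differences are not separate evidence. Over both media ATMYC1 was at 0.40 ± 0.22 in wer myb23 (SE, n = 4 arrays per genotype, limma adjusted p = 0.455) and at -0.47 ± 0.22 in scm (adjusted p = 0.428). TRY over both media was at -0.63 ± 0.40 and -0.35 ± 0.40, and JKD at 0.81 ± 0.28 and 0.95 ± 0.28 (adjusted p = 0.234 and 0.209). Among all probe sets tested, 0.510% were called for wer myb23 and 0.141% for scm over both media.

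JKD differed most from wild type on salt. There the wer myb23 difference was 1.47 ± 0.40, the cpc try difference 1.25 ± 0.40 and the scm difference 1.53 ± 0.40 (log2, SE, n = 2 arrays per group). The arrays of each mutant were above those of wild type, but the share of all probe sets so separated was not counted. None of the 3 differences was called (limma adjusted p = 0.189, 0.0736 and 0.432), and all 3 are read against the same 2 wild type arrays, so they are not separate evidence. Median-centring or quantile normalization of the arrays brought the cpc try difference past the threshold, at 1.38 and 1.46 (adjusted p = 0.0439 and 0.0348). Leaving out the wild type array on salt with the higher signal, replicate 1, did so too, at 1.71 (adjusted p = 0.0267), and leaving out replicate 2 lowered the difference to 0.78. On standard medium the 3 differences were 0.15, 0.32 and 0.37, each within 1 SE of 0.

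**Figure D2:**
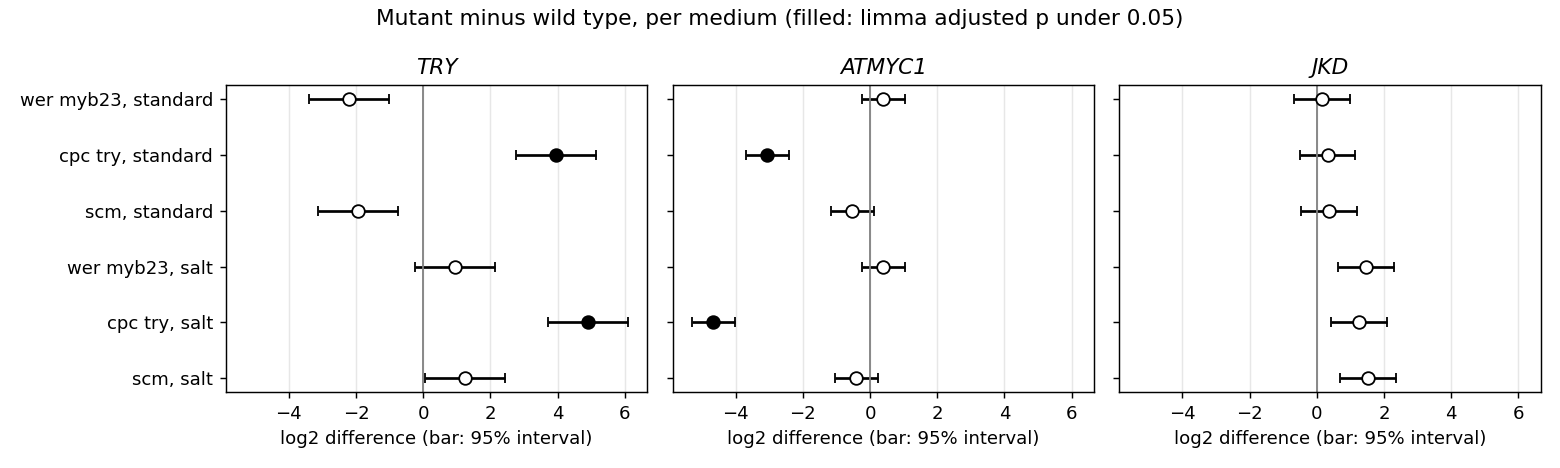
Difference of each mutant from wild type on each medium (log2 scale) for TRY, ATMYC1 and JKD, with the estimate as a point, its unadjusted 95% interval as a bar, and filled points for a limma adjusted p under 0.05. Only cpc try is filled, for TRY at 3.94 and 4.90 and for ATMYC1 at -3.06 and -4.67, and the 3 JKD points on salt lie between 1.25 and 1.53 without being filled.

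The mutants were also compared with each other over both media. The arrays labelled cpc try had more TRY signal than those of wer myb23, by 5.05 ± 0.40, and than those of scm, by 4.77 ± 0.40 (log2, SE, n = 4 arrays per genotype, limma adjusted p = 1.3e-08 and 3.6e-08). ATMYC1 was at -4.26 ± 0.22 against wer myb23 and at -3.40 ± 0.22 against scm (adjusted p = 1.2e-11 and 4.1e-10). JKD was at -0.03 ± 0.28 and -0.16 ± 0.28 and was not called, with 95% intervals from -0.61 to 0.56 and from -0.75 to 0.42. The cortex gene CO2 was higher in cpc try in the same comparisons, by 1.53 ± 0.29 against wer myb23 and 1.11 ± 0.29 against scm (SE, adjusted p = 8.4e-04 and 0.0171), and its part in the TRY and ATMYC1 values was not tested. These comparisons called 14.0% and 8.65% of all probe sets. The 3 genes were chosen with earlier results of these data known, so a call for 2 of them is not tested by those shares. Between wer myb23 and scm, whose epidermal patterns differ, ATMYC1 was at 0.87 ± 0.22. All 4 wer myb23 arrays were above all 4 scm arrays, but the share of all probe sets so separated was not counted. The ATMYC1 difference did not pass (adjusted p = 0.0740, 0.733% of probe sets called). It passed with a pseudocount of 16 (0.83, adjusted p = 0.0200), with only these groups in the fit (adjusted p = 0.0063) and without either cpc try array on salt (adjusted p = 0.0185 and 0.0203). TRY and JKD were at -0.28 ± 0.40 and -0.14 ± 0.28 between these mutants.

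The comparison of salt with standard medium asks how the same transcripts responded within 1 hour. ATMYC1 fell on salt in cpc try and JKD fell on salt in wild type. The mean ATMYC1 signal of cpc try was 31.2 ± 9.62 on standard medium and 8.01 ± 5.34 on salt (SD, n = 2 per medium), low in the range of the array, and its log2 value fell by 1.59 ± 0.31 (SE, limma adjusted p = 0.0014). Fitted on the 4 cpc try arrays alone, the same change had a larger SE of 0.93 and did not pass (adjusted p = 0.436). In wild type, wer myb23 and scm the ATMYC1 changes were 0.02, 0.02 and 0.13, each ± 0.31, with 95% intervals from -0.62 to 0.65 in the first 2 and from -0.50 to 0.77 in scm. The difference between the cpc try and wild type responses of ATMYC1 was -1.61 ± 0.43 and did not pass (adjusted p = 0.260), so the fall is not shown to be particular to cpc try. With a pseudocount of 16 the fall was -0.98 ± 0.25 (adjusted p = 0.0120). In the same arrays the root hair gene EXPA7, at signals that were also low, rose by 1.72 ± 0.28 on salt (limma adjusted p = 2.5e-04). The EXPA7 response differed from that of wild type by 1.68 ± 0.39, which did not pass (adjusted p = 0.190). EXPA18 was at -0.97 ± 0.41 in cpc try, which did not pass (adjusted p = 0.165).

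JKD in wild type fell by 1.46 ± 0.40 on salt (log2, SE, limma adjusted p = 0.0229), where its signals went from 74.8 and 68.7 to 34.0 and 15.9. Its changes were -0.13 for wer myb23, -0.53 for cpc try and -0.30 for scm, each ± 0.40 (SE), and none passed. Across probe sets the 2 wild type arrays on salt were the least alike of any group, at r = 0.917 against up to 0.963. The wild type call was lost without the salt replicate 2, with a change of -0.99 (adjusted p = 0.232), without standard replicate 1 or 2 (adjusted p = 0.0993 and 0.0809), with no filter on dim probe sets (adjusted p = 0.0535) and with only the wild type arrays in the fit (adjusted p = 0.282). Averaged over the genotypes JKD fell by 0.60 ± 0.20 (SE, n = 8 arrays per medium, adjusted p = 0.0282), although its arrays on the media overlapped and 26.5% of all probe sets were called in that average. This call was lost with no filter (adjusted p = 0.0607) and in 7 of the 16 fits that left out 1 array, namely wild type salt 2, wer myb23 standard 2 or salt 2, cpc try standard 1, scm standard 1, and scm salt 1 or 2 (adjusted p from 0.0523 to 0.0890). The cortex gene CO2 also fell in this average, by 0.67 ± 0.21 (SE, adjusted p = 0.0189), and its part in the JKD value was not tested. The differences of the mutant responses from that of wild type were 1.32 ± 0.56 for wer myb23, 0.93 ± 0.56 for cpc try and 1.16 ± 0.56 for scm, and none passed (adjusted p = 0.948, 0.669 and 0.998). All are read against the same wild type arrays.

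TRY had opposite signs on salt among the genotypes without passing in any. It was at -1.67 ± 0.57 in wild type and -0.72 ± 0.57 in cpc try, and at 1.48 ± 0.57 in wer myb23 and 1.52 ± 0.57 in scm (log2, SE, limma adjusted p = 0.0777, 0.525, 0.114 and 0.130). The 2 arrays on salt were below the 2 on standard medium in wild type and cpc try, and above them in wer myb23 and scm. How many of all probe sets separate in this way was not counted. The TRY response differed from that of wild type by 3.15 ± 0.81 in wer myb23 and by 3.19 ± 0.81 in scm, and neither passed (limma adjusted p = 0.827 and 0.862, unadjusted p = 9.0e-04 and 8.0e-04). In cpc try it differed by 0.95 ± 0.81 (adjusted p = 0.791). All of these differences are read against the same wild type arrays, so they are not separate evidence. Outside cpc try, wild type on salt and wer myb23 and scm on standard medium had both TRY arrays under the 25th percentile of all signals, 21.7, so these changes rest on dim values. The filter on dim probe sets used the mean over all 16 arrays, which includes the bright cpc try arrays. Whether TRY would pass this filter without them was not tested. The wild type change passed with a pseudocount of 16, at -1.18 (adjusted p = 0.0445), and without wer myb23 standard replicate 1 or 2 (adjusted p = 0.0340 and 0.0423), and the wer myb23 change passed without its standard replicate 2, at 2.42 (adjusted p = 0.0185).

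For each salt response the share of all probe sets called was 8.89% in wild type, where 1 of the 3 genes fell, 11.0% in wer myb23, where none was called, 9.61% in cpc try, where 1 fell, and 7.84% in scm, where none was called. For the differences from the wild type response it was 0.00586% for wer myb23, 0.0176% for cpc try and 0% for scm (limma, with 764 probe sets at an unadjusted p under 0.05 in scm), and no member was called. With 3 genes, a single call in a comparison that calls about this share of all probe sets is no result about the genes as a group.

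**Figure D3:**
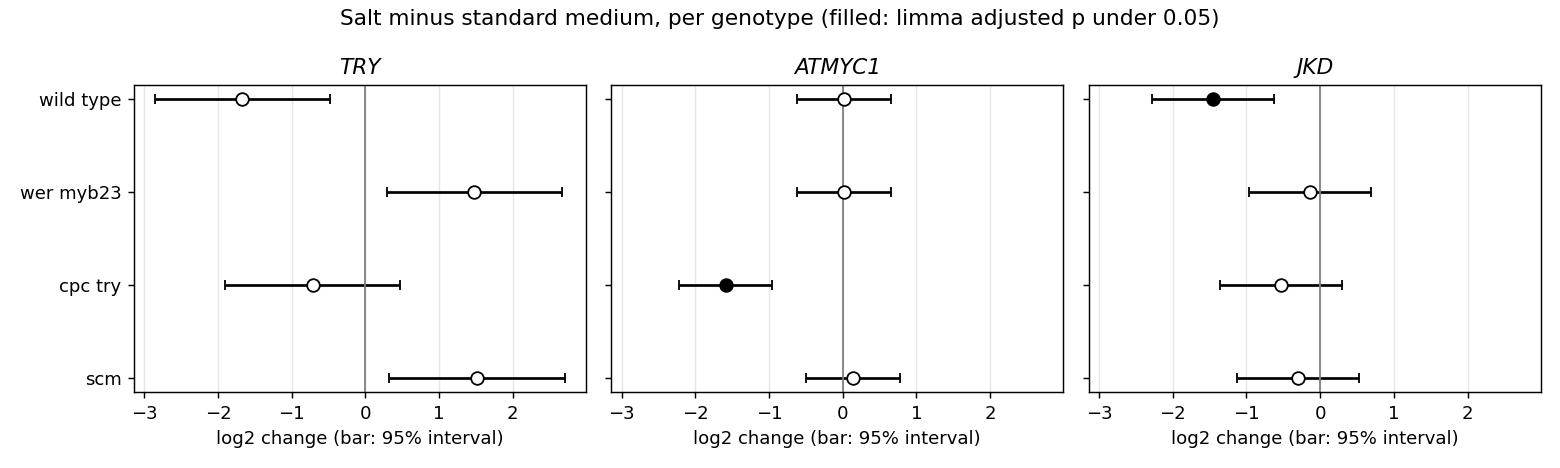
Change from standard medium to salt (log2 scale) of TRY, ATMYC1 and JKD in each genotype, with the estimate as a point, its unadjusted 95% interval as a bar, and filled points for a limma adjusted p under 0.05. The filled points are ATMYC1 in cpc try at -1.59 and JKD in wild type at -1.46, and TRY lies at -1.67 in wild type against 1.48 and 1.52 in wer myb23 and scm without being filled.

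Of 29 other genes of epidermal and ground tissue patterning listed by locus, 3 had a probe set with 1 gene in the annotation, and 2 of these were bright enough to be tested. WER, MYB23, CPC, GL2, GL3, EGL3, TTG1, SCM, SHR and SCR were not analysed here. GEM (AT2G22475), a protein that acts on the expression of patterning genes, fell by 0.71 ± 0.16 on salt in wer myb23 (log2, SE, limma adjusted p = 0.0040), from 684 and 686 to 451 and 388, and averaged over the genotypes fell by 0.30 ± 0.08 (adjusted p = 0.0064). GEM was at -0.40 in wild type, -0.23 in cpc try and 0.14 in scm on salt, each ± 0.16, and none passed. Its wer myb23 response differed from that of wild type by -0.31 ± 0.22, which did not pass (limma adjusted p = 0.962). So the GEM fall is not shown to be particular to wer myb23, where 11.0% of all probe sets were called. GEM was not called between any genotypes. QKY (AT1G74720), a membrane protein that works with SCM, was called in none of the 20 comparisons by limma, with changes from -0.77 to 0.55, and its signals ran from 126 to 223. BIB (AT3G45260), a zinc finger relative of JKD in the ground tissue, was too dim to be tested and gave between 3.22 and 42.5. The cortex gene CO2 fell by 1.35 ± 0.41 on salt in wer myb23 (SE, limma adjusted p = 0.0384), from 65.8 and 58.9 to 37.4 and 12.3, where JKD was at -0.13. In wild type, where JKD fell, CO2 was at -0.45 ± 0.41 (adjusted p = 0.601). The CO2 response of wer myb23 differed from that of wild type by -0.89 ± 0.58, which did not pass (adjusted p = 0.948). So the CO2 fall is not shown to be particular to wer myb23.

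**Figure D4:**
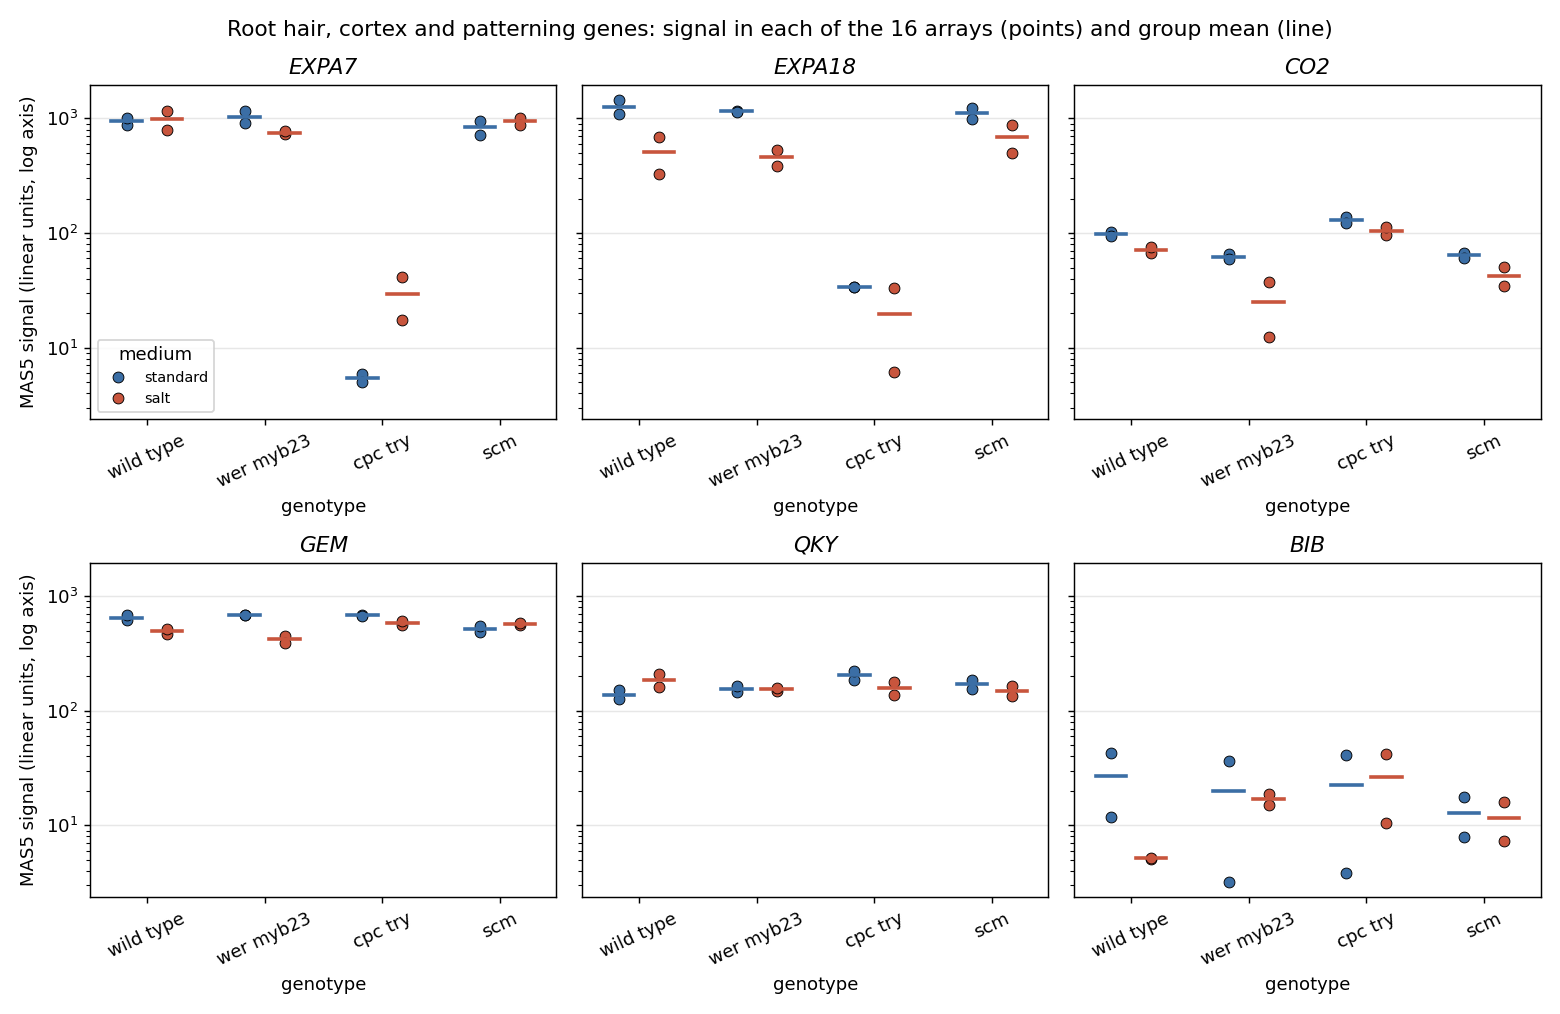
MAS5 signal (log axis) of the root hair genes EXPA7 and EXPA18, the cortex gene CO2 and the patterning genes GEM, QKY and BIB in each of the 16 arrays, with points for arrays, short lines for group means, and blue and red for standard medium and salt. EXPA7 and EXPA18 are low in the 4 cpc try arrays, from 4.96 to 41.7, while GEM and QKY stay within 388 to 691 and 126 to 223.

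The genes whose log2 signals over the 16 arrays correlated best with each member are given as a description, and the 16 arrays share their groups. For ATMYC1 they were GSTU28 (AT1G53680), a glutathione S-transferase, at r = 0.969, AT2G47540 at 0.957, AT1G07700 at 0.956, AT2G01540 at 0.955 and AT4G22460 at 0.954. In cpc try on standard medium their mean signals were 23.0 for GSTU28, 4.98 for AT2G47540, 65.1 for AT1G07700, 311 for AT2G01540 and 35.9 for AT4G22460, against 618, 1024, 144, 1056 and 913 in wild type. Over the 12 arrays of the other genotypes r was between -0.11 and 0.81, highest for AT2G01540, so for the others the likeness lay in the step between cpc try and the rest.

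For TRY the best were AT2G40960 at r = 0.921, the cytochrome P450 CYP71B6 (AT2G24180) at 0.896, scpl25 (AT3G02110) at 0.885, AT2G19460 at 0.876 and AT4G04460 at 0.876. AT2G40960 had mean signals of 239 and 310.3 in cpc try on standard medium and salt and from 50.8 to 75.4 in the other 6 groups. Over the 12 arrays of the other genotypes r fell to between 0.12 and 0.49. For JKD the best were AT3G18640 at r = 0.874, AT2G22620 at 0.860, PGY1 (AT2G27530) at 0.837, AT4G23490 at 0.825 and the GRAS family protein SCL21 (AT2G04890) at 0.823. Without cpc try r was from 0.84 to 0.90. Those arrays still include wild type on salt, where JKD and each of these genes had the lowest group mean. The likeness without wild type on salt was not computed. SCL21 went from 159 ± 27.6 to 52.1 ± 15.7 in wild type on salt (SD, n = 2 each), and was between 102 and 132 in the other groups. Ranked over the 8 group means in place of the arrays, 1 of the 5 genes named for TRY, 0 of the 5 for ATMYC1 and 1 of the 5 for JKD were named again.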

How the data were processed

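Signals were taken from the deposited value table of 16 ATH1 arrays, which holds 22810 positive intensity values per array that the authors made with MAS5 (submitters' processing notes); no MAS5 version or scaling target is given in the labels. Each array had a mean of 250.03 after trimming 2% of values at each end. The 64 control probe sets were set aside, signals were transformed as log2(signal + 4.10), the 10th percentile of the table being 4.10, and probe sets whose mean log2 value was under the 25th percentile were removed, leaving 17059. All 16 arrays were fitted in limma 3.58.1 (R 4.3.3) with 1 mean for each of 8 groups, a trend in the spread and 8 residual degrees of freedom, and the code was tested on simulated data. Tests were two-sided, with Benjamini-Hochberg adjustment over all probe sets. With 2 arrays per group, array number limits precision.

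The members and lists were chosen with earlier results of these data known; named genes are the members, the listed genes with a probe set, and the 5 best correlated genes per member. Probe sets were named through the platform annotation (13513 with 1 gene, 503 with several) and the RefSeq gene table. Replicate numbers were not used as pairs, since replicate differences correlated between groups with r from -0.034 to 0.052 (28 pairs of groups). The leading principal component placed the mutant arrays titled standard between -44.5 and -35.8 beside wild type standard arrays (-44.5 and -37.0), and salt arrays between 30.2 and 54.2. Alternatives changed the pseudocount (1, 16), filter (none, 50th percentile), scaling, trend, groups in the fit, replicate block and each array in turn. Promoter and protein sequences were not used here.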

Additional observations from a re-analysis of the deposited data

How the results depend on the processing

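The 10 calls of TRY and ATMYC1 between cpc try and another genotype kept their direction and passed under every alternative run, except that with the filter at the 50th percentile TRY and JKD were not tested. Adding the replicate block changed no call of a member; the JKD response in wild type stayed at -1.46 (adjusted p = 0.0197). With only the groups compared in the fit the ATMYC1 fall in cpc try (-1.59) and the JKD fall in wild type (-1.46) no longer passed, nor did the latter with no filter (-1.46). The TRY response in wild type passed with a pseudocount of 16 (-1.18), and the JKD difference of cpc try from wild type over both media passed after median-centring (0.91) and quantile normalization (0.96). Signs turned only for values that were called under neither setting. These were the ATMYC1 response after median-centring and quantile normalization in wild type (-0.045 and -0.059) and wer myb23 (-0.056 and -0.031), and the difference between these after median-centring (-0.011). They were also the TRY average response with a pseudocount of 16 (-0.021), and JKD in cpc try against wer myb23 after both scalings (0.027 and 0.021).

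Leaving out each array in turn, the TRY response ran from -1.91 to -1.43 in wild type, from 0.55 to 2.42 in wer myb23, from 0.78 to 2.26 in scm and from -0.079 to 0.39 on average. TRY ran from -1.10 to -0.16 in wer myb23 and from -0.72 to 0.022 in scm against wild type and from -0.75 to 0.19 in wer myb23 against scm over both media. The ATMYC1 response ran from -0.12 to 0.16 in wild type, from -0.13 to 0.16 in wer myb23 and from -0.11 to 0.38 in scm, and its difference from wild type from -0.14 to 0.15 and from -0.13 to 0.37 in the last 2. The JKD response in wild type ran from -1.92 to -0.99, and its differences from that response from 0.86 to 1.79 in wer myb23, from 0.46 to 1.39 in cpc try and from 0.69 to 1.62 in scm. JKD in cpc try ran from -0.15 to 0.79 against wild type on standard medium, from 0.55 to 1.02 over both media, from -0.26 to 0.21 against wer myb23 and from -0.40 to 0.069 against scm. The cause of these shifts was not tested. The average JKD fall passed in 9 of these 16 fits. Over all probe sets, calls ranged from 924 to 1756 for salt in cpc try (1639 as reported), from 917 to 1703 for salt in wild type (1516) and from 613 to 1290 for cpc try against wild type on standard medium (1064), and for wer myb23 and scm against wild type over both media from 12 to 206 (87) and from 3 to 67 (24). The dimness of TRY outside cpc try and of ATMYC1 within it limits their changes.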

Other observations

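Other helix-loop-helix proteins named in the annotation were read beside ATMYC1. The 9 were listed by name after the values of the members had been seen. In cpc try against wild type over both media 1 of the 9 was lower and 0 higher (limma), with a median log2 difference of -0.07 against -0.02 for all probe sets tested, of which 11.6% were called, so this count is near the background. The lower one was bHLH104 (AT4G14410), a regulator of iron responses, at -0.48 ± 0.12 (SE, adjusted p = 0.0135), where ATMYC1 was at -3.86 ± 0.22. On salt averaged over the genotypes 2 rose and 1 fell: bHLH121 (AT3G19860), another iron regulator, by 1.21 ± 0.16, bHLH94 (AT1G22490) by 1.55 ± 0.35, and MYC4 (AT4G17880), a regulator of jasmonate responses, which fell by 1.00 ± 0.25 (log2, SE, adjusted p from 6.4e-06 to 0.0049), in an average where 26.5% of all probe sets were called. bHLH121 rose by 1.55 ± 0.32 in wild type and by 1.43 ± 0.32 in wer myb23. In scm it was at 1.02 ± 0.32 and in cpc try at 0.83 ± 0.32, which did not pass (limma adjusted p = 0.0603 and 0.123). Its response was not called different from that of wild type in any mutant. IDD16 (AT1G25250), of the zinc finger family of JKD, had a mean signal of 31.5 and changed by 0.06 ± 0.93 on salt in wild type (adjusted p = 0.982).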
